A study of Homo sapiens with 18 samples.

Results

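The 81 genes described here encode the proteins of the cytosolic ribosome and their close paralogs, measured by RNA-seq in U2OS-MycER cells. They were chosen by symbol alone, as RPL or RPS followed by a number with an optional A or X, together with RPLP0, RPLP1, RPLP2, RPSA and the paralogs RPL36AL, RPL7L1, RPL22L1, RPL26L1 and RPL39L. The rule took 81 of the 23399 genes in the deposited table, 51 of them named for the large subunit and 30 for the small subunit.

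U2OS is a human osteosarcoma line, and the MycER it carries is Myc joined to the hormone-binding part of the estrogen receptor, which works as a transcription factor once 4-hydroxytamoxifen (OHT) is added. All 8 groups carried MycER and all were transfected with siRNA, directed at RAD21, a subunit of the cohesin ring (siRAD21), or at the Renilla luciferase that human cells lack (siCtrl). Each was given OHT at 400 nM or the solvent ethanol at transfection and was collected after 24 or 48 h, with 3 libraries for siCtrl and for siCtrl OHT at 48 h and 2 for each of the other 6 groups. The 2 siRAD21 OHT libraries of 48 h differed by less than the sampling noise of their reads (chi-square per gene 0.977 over 11720 genes, z = -1.73). Every other within-group pair had a chi-square per gene of 1.04 to 4.21. The 1.04 was that of the siRAD21 pair of 24 h (z = 3.23), close to sampling noise, and the next lowest was 1.46. The siRAD21 pair of 24 h was kept as 2 samples, so its spread may be understated. The 2 siRAD21 OHT libraries of 48 h were counted as 1 sample, entered as their mean, and carry no SD. The study's methods call its RNA-seq replicates biological, while the labels do not tie the libraries to separate cultures, so the p-values measure the spread between these libraries.

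The ribosome is built from ribosomal RNA and about equal molar amounts of its proteins, and the genes of these proteins are among the most actively transcribed of a growing cell. Their mRNAs are short, begin with a C followed by a stretch of pyrimidines (the TOP motif) and are controlled together at translation through mTOR. Myc is known to raise ribosome production by acting on RNA polymerase I, on factors that assemble ribosomes and on ribosomal protein genes. A few of the proteins have paralogs made from separate genes, such as RPL39L beside RPL39 and RPL22L1 beside RPL22. In bulk RNA scaled to the depth of each library, a change within cells and a change in the mix of cells cannot be told apart. Neither the amount of RNA per cell nor the number of cells can be seen.

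Most of the start sites examined lie in or near a run of pyrimidines, which is part of the TOP motif. The run was allowed to lie before the start, so it does not by itself show the motif. RefSeq holds the sequence around the start (GRCh38.p14, 250 bases before to 50 after) of 66 of the 81 genes, and the stretch of 15 bases to either side of the start is given below for genes named later, on the strand of the gene and 5′ to 3′, with the longest unbroken run of C and T near the start in capitals. The first 3 encode the acidic stalk that recruits elongation factors, RPSA a small subunit protein also known as the laminin receptor, RPS18 and RPS10 proteins of the small subunit head, and the rest are paralog pairs with both partners where both were found.
RPLP0 (chr12:120201097-120201126, minus): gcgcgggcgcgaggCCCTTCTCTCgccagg
RPLP1 (chr15:69452803-69452832, plus): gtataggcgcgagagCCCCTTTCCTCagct
RPLP2 (chr11:809952-809981, plus): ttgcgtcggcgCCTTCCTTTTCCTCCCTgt
RPSA (chr3:39406705-39406734, plus): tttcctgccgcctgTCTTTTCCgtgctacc
RPS18 (chr6:33272060-33272089, plus): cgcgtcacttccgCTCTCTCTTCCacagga
RPS10 (chr6:34426055-34426084, minus): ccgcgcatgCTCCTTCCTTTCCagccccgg
RPL36A (chrX:101390996-101391025, plus): tttgcctcgcggTTTCTTTCTTTCCgcgcc
RPL36AL (chr14:49620612-49620641, minus): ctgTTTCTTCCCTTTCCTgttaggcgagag
RPL22 (chr1:6199581-6199610, minus): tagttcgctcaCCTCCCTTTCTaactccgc
RPL22L1 (chr3:170870181-170870210, minus): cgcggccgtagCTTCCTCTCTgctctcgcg
RPL26 (chr17:8383179-8383208, minus): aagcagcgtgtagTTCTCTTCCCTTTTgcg
RPL26L1 (chr5:172958714-172958743, plus): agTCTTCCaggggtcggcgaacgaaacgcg
RPL39 (chrX:119791616-119791645, minus): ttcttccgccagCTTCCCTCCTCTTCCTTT
RPL7L1 (chr6:42879601-42879630, plus): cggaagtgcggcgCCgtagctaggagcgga
RPL26L1 and RPL7L1 stand apart. The other 12 windows show a run of 8 to 18 pyrimidines, whereas RPL26L1 has a run of 6 that lies before the start, and RPL7L1 a run of 2. The run of RPL39 is cut by the edge of its window and is 22 bases long in full.

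Over the 66 genes the longest run of C and T with a base within 10 of the start had a median of 11 bases, against 4 in 27239 other promoters and 4 in 10369 promoters of other genes tested here. A run of 8 or more was present in 53 of the 66 (80.3%), against 15.2% of the other promoters and 14.7% of those of other genes tested. The annotated first base was a C in 48 of the 66 (72.7%), against 14.9% and 11.7%. RPS29 had a run of 2 as RPL7L1 did, and RPL13 and RPL15 runs of 4.

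Myc and its partner Max bind the E-box CACGTG, which reads the same on both strands and was searched in the same RefSeq window around each start. It was found in 4 of the 66 genes (6.06%), against 7.44% of the other promoters and 9.99% of those of other genes tested. Those 4 windows follow, with the E-box in capitals.
RPL13A (chr19:49487375-49487404, plus): gcctccgcgcccCACGTGatctctcgccgg
RPL19 (chr17:39200040-39200069, plus): gttacagataacCACGTGattgggaaccct
RPL7L1 (chr6:42879488-42879517, plus): cacttccacctaCACGTGagagccaaagcc
RPS28 (chr19:8321478-8321507, plus): ctctccccgaagCACGTGactcctctccgc
Counted from the start, the E-box of RPS28 began at -6, that of RPL7L1 at -116, that of RPL13A at -221 and that of RPL19 at -231. Of the other motifs searched on both strands, CCGGAAG, bound by ETS factors, was in 33.3% of the 66 genes against 18.3% of promoters of other genes tested. Against the 27239 other promoters, of genes tested or not, it was 10.6%. TATAAA was in 9.09%, between 5.71% of promoters of other genes tested and 11.96% of all other promoters, and GGGCGG, bound by Sp1, was in 53.0%, between 68.7% and 44.6%, so for both the direction depends on the promoters compared. A match to these letters is a description of the sequence and says nothing on whether a factor was bound.

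The values are eRPKM, reads over the exons of a gene scaled by exon length and by the depth of the library. Levels of different genes thus depend on the exon length used for each. The mean over the 18 libraries ran from 12.3 eRPKM for RPL36A to 140.6 for RPL7, with a median of 66.5 over the 81 genes, against a median of 12.9 over the 14993 genes with a mean of at least 1 eRPKM, which were those tested. All 81 passed this filter. The highest were RPL7, a large subunit protein, RPLP0 at 131.9 and RPL8 at 121.2, and 13 of the 81 were above 100 eRPKM. The lowest were RPL36A, RPS10 at 14.8 and RPS18 at 19.0. The RPS18 values imply 3648 exon bases, against 1834 in GENCODE, so its level per length is uncertain.

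**Figure D1:**
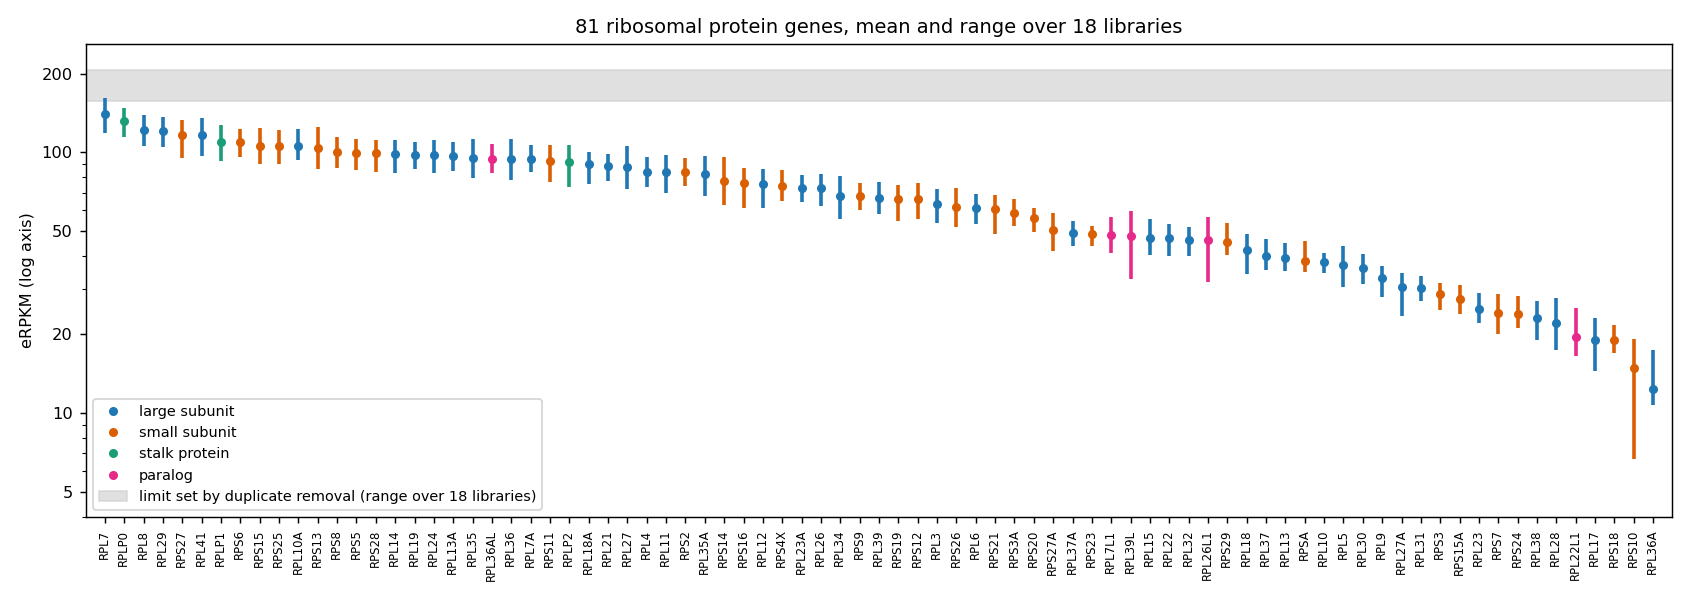
Mean eRPKM of each of the 81 ribosomal protein genes (dots) with the lowest and the highest of the 18 libraries (bars) on a log axis, ordered by mean and coloured by class. The grey band is the highest eRPKM that a gene can reach after the removal of duplicates, 158 to 207 by library, and the genes fall from RPL7 at 140.6 just under it to RPL36A at 12.3.

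These levels are compressed at the top. The authors removed PCR duplicates from 50-base reads, after which at most 1 read per start position and strand remains, so a gene cannot exceed a level set by the depth of the library, 158 to 207 eRPKM here. RPL7 stood on average at 75.8% of this limit, RPLP0 at 71.2% and RPL8 at 65.5%, and 23 of the 81 genes were past 50%. The median over the 81 was 36.0%, against 7.03% over the genes tested. When the removal was undone with the number of reads expected to fall on the same start (assuming an even spread along the gene), RPL7 in siCtrl cells at 48 h went from 149 ± 7.99 (SD, n = 3) to a mean of 254 eRPKM and RPLP0 from 139 ± 4.48 (SD, n = 3) to 220. RPS10 at the low end went from 13.01 ± 0.860 (SD, n = 3) to 12.2, since the depth was recomputed as well.

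Genes with more exon bases had lower eRPKM, a relation that the scale itself favours. Across the 81 genes the log2 mean eRPKM and the log2 exon length that the values imply had r = -0.71 and rho = -0.71, a description over genes of the same libraries. Since eRPKM divides the reads of a gene by this same length, these values cannot show that the level depends on length. RPS27, RPLP1 and RPL41, with 351, 512 and 584 exon bases, stood at 116.6, 109.9 and 116.5 eRPKM, while RPL28 and RPL27A, with 5183 and 4879 exon bases, stood at 22.1 and 30.3. The number of annotated pseudogenes of any type named after a gene, 1587 in all and up to 133 for RPL21, had r = -0.03 and rho = -0.14 with the level. Reads that match a pseudogene equally well cannot be assigned, and all levels of these genes are uncertain to that degree.

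Of the 3 lowest genes, RPL36A and RPS10, together with RPL17 at 19.1 eRPKM, share exons with a read-through gene. RPS10-NUDT3, RPL17-C18orf32 and RPL36A-HNRNPH2 were listed at 0 in all 18 libraries. RPS10 (GRCh37 chr6:34385231-34393846, minus strand) has 730 of its 2318 GENCODE exon bases in common with RPS10-NUDT3, and its values imply 880 exon bases in the annotation that the authors used. It held 60 to 199 reads per library, the fewest of the 81. Among the 81 genes 35 share some exon bases with another gene of the table, 3 of them more than 30% (RPL10, RPL17 and RPS10), and the reads were not assigned by strand.

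Together the 81 genes took 0.565 to 0.713% of the depth of a library, the reads by which its values were scaled. By group the share was 0.610 ± 0.0424% (SD, n = 2) for siCtrl, 0.618 ± 0.0193% (SD, n = 2) for siCtrl OHT, 0.569 ± 0.00638% (SD, n = 2) for siRAD21 and 0.623 ± 0.0299% (SD, n = 2) for siRAD21 OHT cells at 24 h. At 48 h it was 0.652 ± 0.0127% (SD, n = 3), 0.695 ± 0.0228% (SD, n = 3), 0.610 ± 0.0237% (SD, n = 2) and 0.707%, the last being the pair counted as 1 sample. At each time siRAD21 cells thus had the lowest share, and at 48 h both groups with OHT the highest.

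Depth moved with this share. Depth here means the reads that scale the eRPKM values, recovered from the values themselves. Reads recovered for genes made up 99.2 to 99.5% of it in each library, so the number of reads sequenced is not known. This depth ran from 9647514 to 12678618 reads. In 8 of the 8 groups the deepest library had the lowest share of ribosomal protein reads, also after the removal of duplicates was undone (8 of 8). The 2 siCtrl libraries at 24 h show it most plainly, with 0.640% at 10941860 reads and 0.580% at 12678618. At 48 h the siRAD21 OHT libraries had depths of 9653975 and 9818750 reads and the siRAD21 libraries of 10912026 and 10202673. At 24 h siRAD21 cells had the deepest pair, 12312422 and 12614524 reads, against 11061848 and 11626637 for siRAD21 OHT cells. The part of depth in the differences below was not tested.

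**Figure D2:**
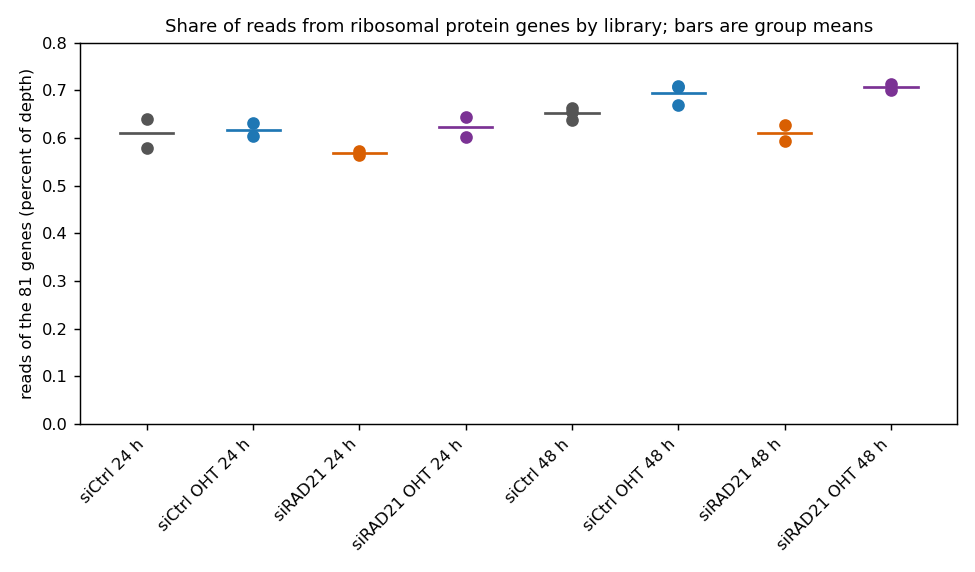
Share of the reads of each library that came from the 81 genes (dots, percent of depth) by group, with group means as bars, 24 h groups on the left. The shares lie between 0.565 and 0.713%, lowest for siRAD21 at 24 h and highest for siRAD21 OHT at 48 h.

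The knockdown was clear in every library. RAD21 itself was at 89.0 to 96.9 eRPKM in siCtrl and 89.1 to 96.3 in siCtrl OHT cells at 48 h, and at 11.2 to 11.3 in siRAD21 and 11.1 in both siRAD21 OHT libraries. At 24 h it was at 66.4 to 72.2 eRPKM in cells with siCtrl and at 15.5 to 18.6 in cells with siRAD21. The MYC row was lower with OHT, going from 52.3 ± 2.33 (SD, n = 3) to 44.9 ± 3.99 eRPKM (SD, n = 3) in siCtrl cells at 48 h (log2 fold change -0.22, adjusted p = 0.0047). In siRAD21 cells it was at 44.8 and 44.6 eRPKM at 24 h and at 57.5 and 56.4 at 48 h, and its siRAD21 effect at 48 h minus that at 24 h was 0.38 on the log2 scale (adjusted p = 0.011). With OHT as well it was at 29.4 and 30.6 at 24 h and at 36.0 and 32.9 at 48 h. The sources used here do not say whether the row also holds reads of MycER. Of the markers of bone and mesenchyme, VIM (105 to 129 eRPKM), SPARC (60.6 to 86.4) and COL1A1 (14.5 to 65.8) were present, RUNX2 and ALPL were low, and COL1A2 and TWIST1 were at or near 0. HBB and KRT19 were at 0, CD3E and PTPRC under 0.4, and EPCAM reached 12.9 eRPKM.

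The comparisons ask whether the loss of RAD21, the activation of MycER or both changed these genes. A gene was called when its p-value, adjusted by Benjamini-Hochberg over all 14993 genes tested in limma, was below 0.05 and its log2 fold change was past 0.5. Fold changes are on the log2(eRPKM + 0.5) scale. Since most of the ribosomal protein genes moved by less than the fold threshold, the count without it (adjusted p below 0.05 alone) is given as well.

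In siRAD21 cells 1 ribosomal protein gene was called, and without the fold threshold the share that fell was near that of all genes. At 48 h RPS10, a protein of the small subunit head, was the only 1 of the 81 called, where 23.7% of all genes tested were. RPS10 stood at 12.1, 13.8 and 13.1 eRPKM in the siCtrl libraries and at 8.54 and 6.68 in the siRAD21 libraries. The groups did not overlap, and the log2 fold change was -0.74 ± 0.10 (SE, adjusted p = 2.6e-05). At 24 h none of the 81 was called in limma, where 8.37% of all genes were. The count at an unadjusted p below 0.05 was 16, or 19.8%, against 35.9% of all genes, and voom on the recovered reads called 0.

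Without the fold threshold 21 of the 81 (25.9%) were lower and 2 higher at 48 h, against 30.1% and 26.6% of all genes, and 10 (12.3%) were lower and 0 higher at 24 h, against 11.0% lower and 13.2% higher of all genes. The share that fell was near that of all genes at both times, and the share that rose was under it at both. Of the 1099 other genes with at least 50 eRPKM 53.3% were lower and 8.64% higher at 48 h, and 11.9% and 3.55% at 24 h. The difference from these genes was not tested. After RPS10 the largest falls at 48 h were in RPL39L (log2 fold change -0.39, adjusted p = 0.00061), RPL26L1 (-0.36, adjusted p = 0.0043) and RPL17 (-0.35, adjusted p = 0.0019). The 2 that rose, named after their values were seen, were RPS29 (0.16, adjusted p = 0.026) and RPL28 (0.11, adjusted p = 0.044). RPS29, a zinc-binding small subunit protein, was at 45.6, 44.7 and 42.1 eRPKM in siCtrl and at 47.6 and 51.3 in siRAD21 libraries, without overlap. At 24 h the largest changes were a log2 fold change of -0.31 in RPS10 (adjusted p = 0.048) and -0.31 in RPL36A (adjusted p = 0.27) downwards, and 0.06 in RPS29 and 0.02 in RPS12 upwards (adjusted p = 0.53 and 0.91).

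The median log2 fold change over the 81 was -0.12 at 48 h, with 74 below 0, and -0.09 at 24 h, with 77 below 0, while the medians over all genes tested were -0.01 and 0.00. The spread of the median between libraries, carried to each comparison, was 0.05 and 0.06. The medians of the large and the small subunit were -0.11 and -0.12 at 48 h and -0.10 and -0.08 at 24 h, and their difference was not tested. Other abundant genes shifted too, the 1099 others with at least 50 eRPKM by -0.16 at 48 h and -0.07 at 24 h. Under quantile normalization, which gives all libraries the same distribution, the medians over the 81 became -0.01 at 48 h and -0.03 at 24 h, with 46 and 59 of the 81 below 0. The shift at 24 h rested on the siCtrl libraries: it was -0.01 without siCtrl replicate 1 and -0.17 without siCtrl replicate 2.

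**Figure D3:**
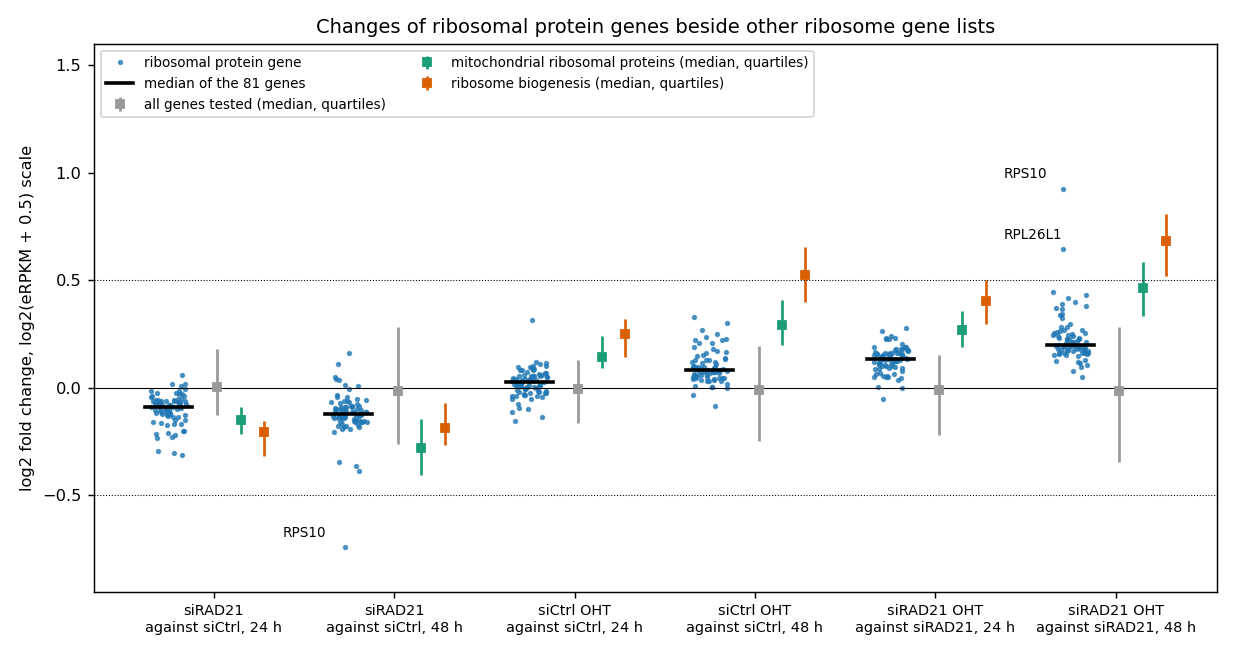
Log2 fold change (log2(eRPKM + 0.5) scale) of each of the 81 genes (blue dots, black line at their median) in 6 comparisons, beside the median and quartiles of all genes tested, mitochondrial ribosomal proteins and ribosome biogenesis factors; dotted lines mark 0.5 and -0.5. Only RPS10 and RPL26L1 lie past a dotted line, while the biogenesis factors reach a median of 0.68 with OHT in siRAD21 cells at 48 h.

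Activation of MycER in siCtrl cells called none of the 81 at either time, while 17.9% of all genes were called at 48 h and 8.66% at 24 h. The counts at an unadjusted p below 0.05 were 25 (30.9%, against 57.5% of all genes) and 2 (2.47%, against 36.0%), and voom called 0 at both times. Without the fold threshold 20 of the 81 (24.7%) rose at 48 h and 0 fell, against 25.5% and 26.6% of all genes and 37.9% and 8.01% of the other genes with at least 50 eRPKM. At 24 h 1 of the 81 rose (1.23%, against 11.8% of all genes): RPL26L1, at 48.8 and 40.7 eRPKM in siCtrl and at 54.8 and 56.2 in siCtrl OHT libraries (log2 fold change 0.31, adjusted p = 0.037).

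The largest rises at 48 h were in RPL22L1 (log2 fold change 0.33, adjusted p = 0.0022) and RPS10 (0.30, adjusted p = 0.011). RPL22L1 was at 16.8, 18.5 and 17.6 eRPKM in siCtrl and at 21.5, 21.8 and 23.6 in siCtrl OHT libraries, while RPL22, its partner, was at 48.4, 47.1 and 48.5 and at 48.7, 51.7 and 53.1 (0.09, adjusted p = 0.17). Neither pair of groups overlapped, though for RPL22 the gap was only from 48.5 to 48.7 eRPKM. The 2 largest falls were values of -0.09 in RPS23 and -0.03 in RPS20 (adjusted p = 0.067 and 0.59), and at 24 h of -0.15 in RPL36A and -0.14 in RPL28 (adjusted p = 0.62 and 0.054). The median over the 81 was 0.08 at 48 h, with 78 above 0, and 0.03 at 24 h, with 53 above 0. The other genes with at least 50 eRPKM had medians of 0.09 and 0.03. Without siCtrl replicate 2 the median at 24 h turned to -0.06, and under quantile normalization it was 0.00 at 48 h and -0.01 at 24 h.

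In siRAD21 cells at 48 h RPS10 and RPL26L1 were called higher, 2 of the 81 (2.47%), where 27.2% of all genes were called in either direction. RPS10 rose from 8.54 and 6.68 eRPKM in siRAD21 to 14.01 and 15.6 in siRAD21 OHT libraries (log2 fold change 0.93 ± 0.13 (SE), adjusted p = 7.8e-05). RPL26L1 (GRCh37 chr5:172385732-172396774, plus strand), the paralog of RPL26, rose from 31.9 and 31.8 to 49.6 and 50.3 eRPKM (0.64 ± 0.12 (SE), adjusted p = 0.00081). Both groups lay apart for both genes, and RPL26L1 shares no exon bases with another gene of the table. Under quantile normalization RPL26L1 had 0.47 and was no longer past the fold threshold.

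Without the fold threshold 39 of the 81 (48.1%) rose at 48 h and 0 fell, against 26.1% and 24.3% of all genes. Of the other genes with at least 50 eRPKM 56.5% rose and 4.73% fell, a larger share than among the ribosomal protein genes, and this difference was not tested. All 81 had a log2 fold change above 0, with a median of 0.20, the smallest in RPL31 (0.05) and RPS23 (0.08). Next to the called genes came RPL39L (0.45, adjusted p = 0.0025), RPS21 (0.43, adjusted p = 0.0012) and RPL22L1 (0.42, adjusted p = 0.0072). The median was 0.21 for the large and 0.19 for the small subunit, 0.23 for the other genes with at least 50 eRPKM and -0.01 for all genes. Under quantile normalization it was 0.02, with 48 of the 81 above 0. The 2 siRAD21 OHT libraries were shallower than the siRAD21 libraries, as given above.

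At 24 h none was called, where 11.8% of all genes were. The count at an unadjusted p below 0.05 was 34 (42%, against 43.3% of all genes), voom called 0, and without the fold threshold 14 of the 81 (17.3%) rose, against 16.1% of all genes. The largest values were 0.28 in RPL26L1 and 0.27 in RPS10 (adjusted p = 0.047 and 0.072), and the smallest -0.05 in RPL28 and 0.00 in RPS29 (adjusted p = 0.42 and 0.99). The median was 0.13, with 79 above 0, and the other genes with at least 50 eRPKM had 0.10.

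The difference between the effect of OHT in siRAD21 and in siCtrl cells was tested as an interaction. At 48 h RPS10 was the single gene of the 81 called, where 5.5% of all genes were, with a difference of 0.63 on the log2 scale (SE 0.16, adjusted p = 0.024), and without the fold threshold it was again the 1 gene higher (1.23%, against 5.88% of all genes). This call was lost with voom, where the difference was 0.65 (adjusted p = 0.059), and without siRAD21 replicate 2, where it was 0.46 (adjusted p = 0.073). RPL26L1 and RPL39L had differences of 0.37 and 0.36 (adjusted p = 0.14 and 0.075), and the lowest values were -0.02 in RPL36A and -0.01 in RPS16. At 24 h none was called, as of all genes (0.0%). The count at an unadjusted p below 0.05 was 3 (3.7%, against 5.56% of all genes), voom called 0, and the largest values were 0.25 in RPL17 and 0.23 in RPLP1 upwards and -0.03 in RPL26L1 and -0.01 in RPS29 downwards, each with an adjusted p of at least 0.86. The medians over the 81 were 0.13 at 48 h and 0.11 at 24 h. Under quantile normalization they were 0.03 and 0.05. The median at 24 h was 0.04 without siCtrl replicate 1 and 0.19 without siCtrl replicate 2.

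RPS10 changed most of the 81 in several comparisons, and its overlapping neighbour was measured beside it. NUDT3, whose exons continue the read-through gene, was at 2.40 to 2.96 eRPKM in siCtrl, 3.60 to 3.90 in siCtrl OHT, 2.42 to 2.45 in siRAD21 and 2.81 to 3.40 in siRAD21 OHT cells at 48 h. At 24 h it was at 3.72 to 4.81, 4.91 to 5.23, 3.61 to 4.07 and 4.81 to 5.36 in the same order. Between 24 and 48 h in siCtrl cells NUDT3 was called lower (log2 fold change -0.54, adjusted p = 0.0021), where RPS10 had -0.43. With siRAD21 at 48 h NUDT3 had -0.15 (adjusted p = 0.27), where RPS10 had -0.74. RPS10 itself was at 16.2 to 19.2 eRPKM in siCtrl, 18.4 in both siCtrl OHT, 13.7 to 14.6 in siRAD21 and 16.1 to 18.1 in siRAD21 OHT cells at 24 h. The part of the read-through gene in the RPS10 values was not tested. Without RPS10, RPL17 and RPL36A the median over the remaining 78 was -0.12 for siRAD21 and 0.20 for OHT in siRAD21 cells at 48 h, the same to 2 decimals as with them.

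The paralogs RPL39L and RPL26L1 fell in siRAD21 cells at 48 h, as given above. RPL39L, best known from testis, was at 39.4, 46.8 and 47.3 eRPKM in siCtrl libraries and at 34.8 and 32.8 in siRAD21 libraries, without overlap. RPL39, which lines the exit tunnel of the large subunit, was at 71.5, 73.4 and 64.6 and at 62.6 and 62.2, likewise without overlap (log2 fold change -0.16, adjusted p = 0.078). RPL26L1 was at 36.6, 44.9 and 42.2 in siCtrl against the 31.9 and 31.8 already given, and RPL26 had a log2 fold change of -0.16 (adjusted p = 0.042).

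RPL7L1, whose product is linked to ribosome assembly, fell by 0.18 with siRAD21 at 48 h (adjusted p = 0.004) and rose by 0.23 with OHT in siCtrl cells (adjusted p = 0.0004) and by 0.38 with OHT in siRAD21 cells (adjusted p = 0.0002). It was at 44.4 to 48.5 eRPKM in siCtrl, 40.9 in both siRAD21, 51.9 to 56.3 in siCtrl OHT and 53.1 to 53.7 in siRAD21 OHT libraries, so the groups with and without OHT did not overlap. RPL7 had log2 fold changes of -0.10, 0.07 and 0.17 in these comparisons (adjusted p = 0.20, 0.30 and 0.11), at a mean share of 75.8% of the limit. RPL36AL was at 96.3 ± 2.86 (SD, n = 3) in siCtrl and 89.2 ± 2.38 eRPKM (SD, n = 2) in siRAD21 cells at 48 h, against 12.5 ± 2.94 (SD, n = 3) and 11.4 ± 0.103 (SD, n = 2) for RPL36A. This gap depends on the exon lengths that the values imply. RPL36AL held 535 to 628 reads per library on 577 exon bases, and RPL36A 305 to 535 reads on 2911. The difference between a paralog and its partner was not tested.

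**Figure D4:**
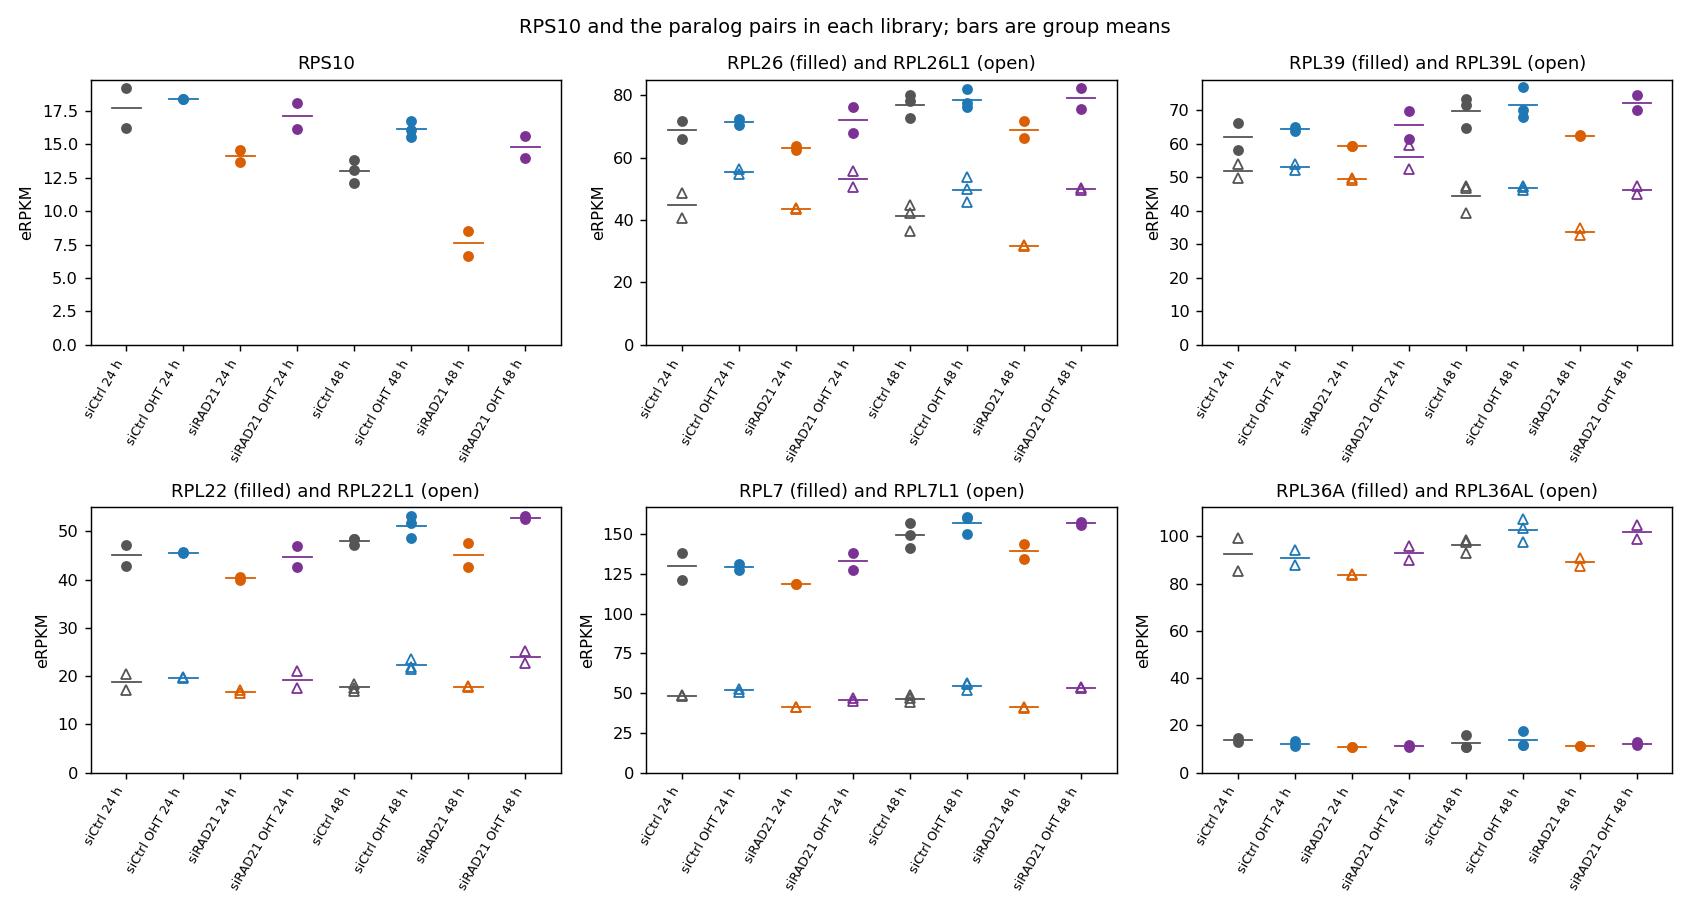
Level in eRPKM in each library of RPS10 and of 5 paralog pairs, with the canonical gene as filled circles, the paralog as open triangles and group means as bars, on axes that start at 0. RPS10 is lowest in siRAD21 at 48 h (6.68 and 8.54), and RPL26L1 and RPL39L are lowest there as well, while RPL26 and RPL39 have their lowest means in siRAD21 at 24 h (63.1 and 59.5).

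The stalk proteins RPLP0, RPLP1 and RPLP2 and the small subunit protein RPSA were called in none of the comparisons made here. RPLP0, a common reference gene in RT-PCR, was at 143.5, 139.8 and 134.6 eRPKM in siCtrl, 137.3, 146.5 and 144.4 in siCtrl OHT, 126.3 and 136.2 in siRAD21 and 148.1 and 145.5 in siRAD21 OHT libraries at 48 h. The siCtrl and siRAD21 libraries overlapped (log2 fold change -0.09, adjusted p = 0.24), and those of siRAD21 OHT lay above those of siRAD21 (0.16, adjusted p = 0.11). RPLP2 had log2 fold changes of -0.14, 0.02 and 0.20 for siRAD21, for OHT in siCtrl and for OHT in siRAD21 cells at 48 h (adjusted p = 0.12, 0.86 and 0.11). RPSA was at 39.6 ± 0.674 (SD, n = 3) in siCtrl and 36.6 ± 0.699 eRPKM (SD, n = 2) in siRAD21 cells (adjusted p = 0.088). Of the most and the least abundant genes not yet given, RPL8 had log2 fold changes of -0.13, 0.09 and 0.21 (adjusted p = 0.095, 0.19 and 0.052) in these 3 comparisons. RPS18 had -0.11, 0.09 and 0.24 (adjusted p = 0.16, 0.21 and 0.026).

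The 40 genes with the larger share of the limit had a median log2 fold change of -0.12 for siRAD21 and 0.19 for OHT in siRAD21 cells at 48 h, and the 41 with the smaller share -0.11 and 0.23. Under quantile normalization the medians for OHT in siRAD21 cells were 0.00 and 0.07. Their median shares of the limit were 51.1% and 21.7%. Undoing the removal of duplicates changed the medians over all 81 from -0.12 to -0.13 and from 0.20 to 0.23, and the same numbers of genes were called in every comparison. RPL7 went from 0.17 to 0.24 and RPLP0 from 0.16 to 0.20 for OHT in siRAD21 cells at 48 h.

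**Figure D5:**
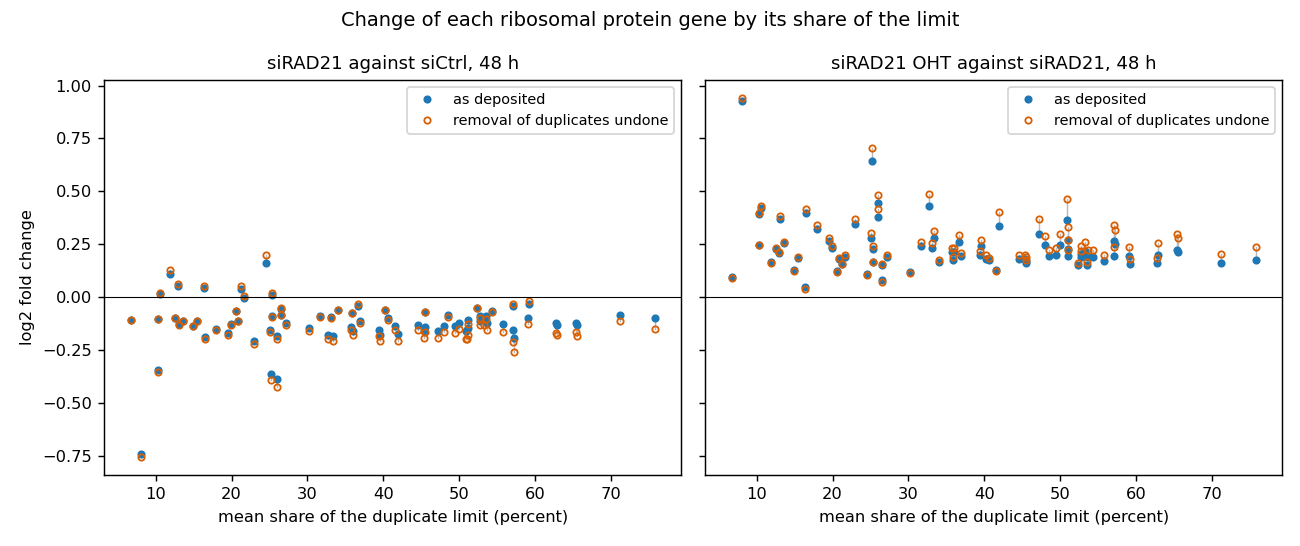
Log2 fold change of the 81 genes against their mean share of the limit that the removal of duplicates sets, as deposited (filled) and with the removal undone (open), joined by grey lines, for siRAD21 and for OHT in siRAD21 cells at 48 h. The lines lengthen to the right, toward RPL7 at 75.8%, but the medians move from -0.12 to -0.13 and from 0.20 to 0.23.

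Of 35 ribosome biogenesis factors 34 were tested, with a median of 40.01 eRPKM and 21.7% of the limit, the same share as the lower group of ribosomal protein genes. At 48 h 19 of the 34 were called higher with OHT in siCtrl cells (median log2 fold change 0.53) and 26 in siRAD21 cells (0.68), against 7.77% and 12% of all genes. None of the 34 was called lower, against 10.1% and 15.1% of all genes. RRP12, which helps export the subunits, rose by 1.17 (adjusted p = 3.2e-08) and NOP16, a nucleolar protein, by 0.91 (adjusted p = 3.2e-07) in siCtrl cells. In siRAD21 cells LYAR rose by 1.21 (adjusted p = 1.0e-06) and NOLC1, the nucleolar phosphoprotein Nopp140, by 1.12 (adjusted p = 4.7e-08). With siRAD21 alone 2 were called lower and 1 higher at 48 h, against 11.2% and 12.5% of all genes, with a median of -0.19, LYAR at -0.85 (adjusted p = 7.8e-07) and RRP12 at 0.60 (adjusted p = 2.2e-05). Under quantile normalization the OHT medians were 0.45 and 0.57, against 0.00 and 0.02 for the ribosomal protein genes.

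Of 77 genes of the mitochondrial ribosome 76 were tested, with a median of 37.2 eRPKM. At 48 h 9 were called lower with siRAD21 (median -0.28), 8 higher with OHT in siCtrl cells (0.29) and 33 higher with OHT in siRAD21 cells (0.46), with none in the other directions. Of all genes 11.2%, 7.77% and 12% were called in these directions, so the first 2 counts are near the background and the last is above it. The siRAD21 median was the lowest of the lists compared. MRPL18 fell by 1.25 (adjusted p = 5.2e-08) and MRPL12 by 0.66 (adjusted p = 2.6e-05) with siRAD21. MRPS25 rose by 0.81 (adjusted p = 4.4e-09) with OHT in siCtrl and by 1.12 (adjusted p = 2.2e-08) in siRAD21 cells. Under quantile normalization these 3 medians were -0.20, 0.21 and 0.34.

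Of 22 genes of other TOP mRNAs and translation factors, whose start sequences were not examined here, 21 were tested, at a median of 71.6 eRPKM. At 48 h 1 was called, EIF2S3, a subunit of the factor that brings the initiator tRNA, which fell by 0.60 with siRAD21 (adjusted p = 7.9e-07). Of all genes 23.7% were called in either direction with siRAD21, 17.9% with OHT in siCtrl and 27.2% with OHT in siRAD21 cells. The list was under these shares. The medians of the 21 genes were -0.11 for siRAD21, 0.05 for OHT in siCtrl and 0.14 for OHT in siRAD21 cells at 48 h. The ribosomal protein genes had -0.12, 0.08 and 0.20, and the other genes with at least 50 eRPKM -0.16, 0.09 and 0.23. Under quantile normalization the medians were 0.033, -0.040 and -0.031 for this list. Those of the ribosomal protein genes were then -0.010, -0.002 and 0.020. The differences between these lists were not tested. The siRAD21 comparisons and those of OHT in siRAD21 cells share the siRAD21 libraries, as the siRAD21 and the siCtrl OHT comparisons share the siCtrl libraries.

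Between 24 and 48 h in siCtrl cells without OHT none of the 81 was called in limma, where 12.5% of all genes were. The count at an unadjusted p below 0.05 was 41 (50.6%, against 51.3% of all genes), and voom called 0. Without the fold threshold 30 (37%) were higher at 48 h, against 17.2% of all genes, and 4 (4.94%) lower, against 26.4%. The largest rises were in RPLP2, from 84.9 and 73.3 to 100.8, 104.8 and 98.0 eRPKM (log2 fold change 0.36, adjusted p = 0.0017), and in RPL11, which together with RPL5 binds MDM2 (0.31, adjusted p = 0.00097). The 4 lower genes were RPS10 (-0.43, adjusted p = 0.0033), RPL39L (-0.22, adjusted p = 0.027), RPL27A (-0.19, adjusted p = 0.004) and RPL9 (-0.19, adjusted p = 0.0075). The median was 0.12, against 0.16 in the genes with the larger and 0.06 in those with the smaller share of the limit. The limit itself was higher at 48 h, 185 to 205 eRPKM against 158 to 183 at 24 h, because those libraries were shallower. With the removal of duplicates undone the median was 0.11, and under quantile normalization 0.09.

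The effect of siRAD21 at 48 h against that at 24 h called none of the 81, where 10.4% of all genes were. The count at an unadjusted p below 0.05 was 3 (3.7%, against 33.0% of all genes), voom called 0, and the lowest values were -0.43 in RPS10 and -0.34 in RPL26L1 (adjusted p = 0.052 and 0.10), the highest 0.19 in RPL36A and 0.17 in RPL22L1 (adjusted p = 0.65 and 0.39). The effect of OHT in siCtrl cells at 48 h against 24 h likewise called none, where 1.56% of all genes were. The count at an unadjusted p below 0.05 was 5 (6.17%, against 17.9% of all genes), voom called 0, and the values ran from -0.07 in RPS23 and -0.05 in RPS19 (adjusted p = 0.60 and 0.85) to 0.27 in RPL36A and 0.32 in RPL17 (adjusted p = 0.61 and 0.13).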

How the data were processed

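RNA was depleted of ribosomal RNA and sequenced as unstranded libraries. Per the labels and the study's methods, the authors masked bases of quality below 20 in 50-base reads, aligned them to hg19 with TopHat2 2.0.8, removed PCR duplicates, counted reads with featureCounts 1.4.5 and deposited RPKM values over exons (eRPKM) for 23399 genes. They called differential expression with DESeq2, which was not run here because the deposited values are not counts.

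From these values the exon length and depth that make reads whole (within 0.02) were recovered for 21239 genes, 99.2 to 99.5% of the depth of each library and all 81 ribosomal protein genes. Intervals and limits drawn from reads cover counting error only. Groups came from the labels of the libraries. limma 3.58.1 (R 4.3.3) was fitted to log2(eRPKM + 0.5) of the 14993 genes with a mean of at least 1 eRPKM, with a mean per group, a variance trend and 9 residual degrees of freedom, and p-values were adjusted by Benjamini-Hochberg within each comparison. The removal of duplicates was undone as -2L ln(1 - n/2L) for n reads on L exon bases.

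The replicate numbers paired the siCtrl and siCtrl OHT libraries of 48 h: deviations from the group means of same-numbered libraries correlated at 0.258, 0.130 and 0.157. The main fit had no replicate term. The alternatives were other pseudocounts and filters, centring, quantile normalization, undoing duplicates, voom, a replicate block (with both siRAD21 OHT libraries of 48 h as separate samples), both of these libraries without the block, no fold change threshold and leaving out each library. Undoing duplicates together with centring, and leaving out the genes with a read-through neighbour, were added after seeing the data. The genes and lists were chosen with earlier results of these data known. Named are RAD21 and MYC, RPLP0, RPLP1, RPLP2, RPSA, the paralogs with their partners, the 3 highest and 3 lowest genes, the called genes of each comparison and, where none was called, the 2 largest changes each way; RPS27, RPL41, RPL28, RPL27A and the genes of counts without a fold threshold were named after their values were seen. Symbols starting with MRPL or MRPS that are pseudogenes or antisense genes were left out of the mitochondrial list. Positions came from GENCODE v44 on GRCh37. The procedure was tested on simulated data. Tables were made with pandas 2.3.3 and numpy 2.4.6 in Python 3.11.15, and plots with matplotlib 3.10.9.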

Additional observations from a re-analysis of the deposited data

Results flagged for a closer look

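RPS10 responded differently to OHT in siRAD21 and in siCtrl cells at 48 h: the test of the difference itself, an interaction term in limma, gave 0.63 on the log2 scale (adjusted p = 0.024 over all genes tested). RPS10 was higher with OHT in all libraries of both backgrounds at 48 h, by 0.30 in siCtrl and 0.93 in siRAD21 cells. The call was lost with voom (0.65, adjusted p = 0.059) and without siRAD21 replicate 2 at 48 h (0.46, adjusted p = 0.073). The gene held 60 to 199 reads per library and shares exons with RPS10-NUDT3, which was listed at 0 throughout, and the part of either in the difference was not tested.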

How the results depend on the processing

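No called value changed sign under the alternatives run. Without the fold threshold the numbers of ribosomal protein genes called were 10 and 23 for siRAD21 at 24 and 48 h, 1 and 20 for OHT in siCtrl cells, 14 and 39 for OHT in siRAD21 cells, and 34 for 48 h against 24 h. The shares of all genes are given with each of these comparisons above, by direction. Quantile normalization moved the median log2 fold change to -0.032 and -0.0098 for siRAD21 at 24 and 48 h, -0.0020 for OHT in siCtrl cells at 48 h, 0.0398 and 0.0196 for OHT in siRAD21 cells at 24 and 48 h and 0.0333 for the interaction at 48 h, and left 1 gene called for OHT in siRAD21 cells at 48 h. Centring on the median moved 48 h against 24 h to 0.21. Undoing duplicates with centring moved OHT in siCtrl cells at 48 h to 0.13 and 48 h against 24 h to 0.18, with 5 genes called for OHT in siRAD21 cells at 48 h (RPS10, RPL26L1, RPL36, RPL39L and RPS21) and 1 for 48 h against 24 h (RPLP2). Voom called 0 in the interaction at 48 h.

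Leaving out each library gave medians of -0.174 to -0.0123 and -0.16 to -0.08 for siRAD21 at 24 and 48 h, -0.0612 to 0.0931 and 0.06 to 0.11 for OHT in siCtrl cells, 0.08 to 0.19 and 0.17 to 0.24 for OHT in siRAD21 cells, 0.04 to 0.19 and 0.09 to 0.17 for the interactions, and 0.0362 to 0.212 for 48 h against 24 h. The siCtrl libraries of 24 h set most of the range: without replicate 1 and replicate 2 in turn the siRAD21 median was -0.01 and -0.17, that of OHT in siCtrl cells 0.09 and -0.06, and that of 48 h against 24 h 0.21 and 0.04. The numbers of genes called ranged from 0 to 1 for the interaction at 48 h, for 48 h against 24 h and for siRAD21 at 48 h minus 24 h, and did not move elsewhere. RPS10 was the gene gained or lost each time: gained for siRAD21 at 48 h minus 24 h without siCtrl replicate 1 at 24 h or siRAD21 replicate 1 at 48 h, gained for 48 h against 24 h without siCtrl replicate 2 at 24 h, and lost from the interaction at 48 h without siRAD21 replicate 2. The replicate block changed no call among the 81 genes (1 gene called for siRAD21 and 2 for OHT in siRAD21 cells at 48 h), and no other call or median moved beyond its spread. The block was run only with both siRAD21 OHT libraries of 48 h as separate samples, so the pairing was not tested with them as 1 sample. The cause of these changes was not tested, and differences near the spread of the median, 0.05 to 0.08, are beyond what these libraries can resolve.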
